A study of Rattus norvegicus with 12 samples.

Results

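The SIBLING genes encode small integrin-binding ligand N-linked glycoproteins, the acidic phosphoproteins of the bone and dentin matrix. The 4 studied here were Dmp1 (dentin matrix protein), Mepe (matrix extracellular phosphoglycoprotein), Spp1 (osteopontin) and Ibsp (bone sialoprotein), chosen by name from the 45598 probes of the array. Each had 1 probe, and all 4 stayed among the 22990 genes left after a filter on dim probes. Calvaria, the flat bones that roof the skull, were sampled from rats 10 weeks old at 6 h after surgery, and their RNA was hybridised to 12 one-colour arrays. In 4 laser samples a bone defect of 8 by 3 mm was cut by Er:YAG laser, which removes tissue by heating its water, in 3 strokes at 20 Hz and 127 mJ per pulse. In 4 bur samples a rotating bur drilled a defect of equal area. In 4 control samples the periosteum, the membrane over the bone, was taken off and the bone left uncut, so the controls carried a surgical wound as well. Whether each sample stands for its own animal is not stated in the labels, and p-values therefore measure the spread between these samples.

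The SIBLING proteins are secreted by osteoblasts, osteocytes and odontoblasts, are heavily phosphorylated, bind calcium and hydroxyapatite, and carry an RGD motif that integrins recognise. Dmp1 is made mainly by osteocytes, the cells embedded in bone, and its loss raises the phosphate-regulating hormone Fgf23. Mepe is also an osteocyte product and releases the acidic ASARM peptide, which inhibits mineralisation. Spp1 is made by osteoblasts, osteocytes, osteoclasts and macrophages, binds integrins and CD44, and restrains crystal growth. Ibsp is made by osteoblasts laying down new matrix and can nucleate hydroxyapatite.

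The bone markers Col1a1, Bglap and Ifitm5 of osteoblasts passed the filter on dim probes, as did 6 of 7 osteocyte markers. Between 67.8% and 73.7% of the spots were well above background on each array, and the 75th percentile of the signal ranged from 197.2 to 383.2. Precision is limited by the 4 arrays per group. All 4 control arrays lay on slide 3, while slides 1 and 2 held 2 laser and 2 bur arrays each, so a difference from control cannot be told apart from a difference between slides. Spike-in spots of the E1A type, added in known amounts during labelling, read 0.19 to 0.59 on laser arrays, 0.19 to 0.53 on bur arrays and -2.85 to -2.28 on control arrays (log2 signal over the array's 75th percentile). The part of this shift in the differences from control was not tested.

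The 4 genes lie side by side on chromosome 14 of the rat, all read from the minus strand, with Dspp (dentin sialophosphoprotein), another SIBLING gene, as the next gene after Dmp1. In the RefSeq table of the GRCr8 assembly Spp1 spans chr14:5613569-5620695, Mepe chr14:5725308-5736858, Ibsp chr14:5744497-5757242 and Dmp1 chr14:5833111-5867154. All 4 members matched a RefSeq entry of the promoter table. The 250 bases before the annotated start are shown for the 3 genes whose unequal responses are described below although they are neighbours, 5′ to 3′ on the gene's own strand. Capitals mark every match, on either strand, to the Runx core ACCNCA, the AP-1 motif TGANTCA, the cAMP response element core TGACGT, the CCAAT box and the TATA box TATAAA; no 2 matches overlap.
Mepe: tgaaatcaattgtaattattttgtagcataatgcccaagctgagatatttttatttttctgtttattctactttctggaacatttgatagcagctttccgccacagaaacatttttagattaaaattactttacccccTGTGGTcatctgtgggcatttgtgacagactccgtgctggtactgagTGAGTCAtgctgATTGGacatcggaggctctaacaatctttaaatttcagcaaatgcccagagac
Spp1: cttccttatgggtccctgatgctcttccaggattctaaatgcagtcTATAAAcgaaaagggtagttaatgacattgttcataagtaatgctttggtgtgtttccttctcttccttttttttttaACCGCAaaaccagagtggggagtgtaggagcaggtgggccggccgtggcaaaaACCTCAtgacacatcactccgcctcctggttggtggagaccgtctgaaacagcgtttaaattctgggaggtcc
Ibsp: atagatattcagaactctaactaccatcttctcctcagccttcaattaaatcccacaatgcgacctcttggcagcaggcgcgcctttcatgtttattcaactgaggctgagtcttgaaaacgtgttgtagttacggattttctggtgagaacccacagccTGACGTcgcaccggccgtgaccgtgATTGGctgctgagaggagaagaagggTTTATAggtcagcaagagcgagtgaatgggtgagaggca
The windows are chr14:5736859-5737108 for Mepe, chr14:5619805-5620054 for Spp1 and chr14:5757243-5757492 for Ibsp. The Mepe and Ibsp windows end at the 5′ end of their gene records, while the Spp1 start lies 891 bases inside its record, which holds a longer transcript. The Dmp1 start lies 27070 bases inside its gene record, and the window before it held none of the 5 motifs, so that window is not printed.

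Each of the 3 windows held a different set of motifs. The Mepe window held 1 Runx core on the reverse strand 112 bases before the start, 1 AP-1 motif at 65 bases and 1 reversed CCAAT box at 53 bases. In the Spp1 window there were 2 Runx cores, at 126 and 73 bases, and 1 TATA box letter match at 204 bases. The Ibsp window held the response element core at 90 bases, a reversed CCAAT box at 65 bases and a reversed TATA box at 39 bases. Among 33469 RefSeq promoter windows of the same length, 41% held a Runx core, 34% a CCAAT box, 12.9% a TATA box, 6.95% the response element core and 6.34% an AP-1 motif. These matches describe letters only, and none was tested for binding.

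All 4 SIBLING genes passed the test as higher in laser-ablated bone than in control bone, where 32.2% of all genes tested passed in that direction. In bur-drilled bone 2 of the 4, Dmp1 and Mepe, were higher than in control, with 32.7% of all genes passing in that direction. The laser calls of Spp1 and Ibsp, unlike those of Dmp1 and Mepe, were lost in some other settings. Between laser and bur none of the 4 passed, and over all genes only 1, the heat shock gene Hspa1a, did (0.00435%). Hspa1a is named here because it was that single gene, after its value was seen. The median log2 fold change of the 4 was 1.43 for laser against control, beside 0.21 over all genes, and 0.59 for bur against control, beside 0.23 over all genes. Genes in the highest of 5 equal classes of mean signal, which holds the 4 members, had a median of 0.32 with 43.8% passing as higher for laser against control, and 0.30 with 41.9% for bur against control. All 4 probes were well above background on 12 of 12 arrays and none was saturated. A change in the number of cells of a type and a change in RNA per cell, up or down, cannot be told apart in these bulk samples. Both comparisons use the same 4 control samples.

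Dmp1 had the largest difference between laser and control among the members. Its log2 signal over the array's 75th percentile was 5.68, 5.71, 6.45 and 6.76 in the laser samples, 4.58, 4.11, 4.0 and 4.20 in the bur samples and 3.47, 2.93, 3.23 and 3.45 in the control samples. The 3 groups did not overlap: every laser sample lay above every bur sample, and every bur sample above every control sample. Dmp1 rose 7.36-fold in laser bone over control, a log2 fold change of 2.88 ± 0.25 (SE, n = 4 each, limma adjusted p = 7.69e-05), which 0.574% of all genes exceeded. In bur bone it rose 1.94-fold over control (log2 0.95 ± 0.25, SE, n = 4 each, limma adjusted p = 0.0100). An exact permutation test gave p = 0.0286 for each comparison, the smallest that 70 assignments of 8 samples allow. Nonoverlapping groups with the treated samples higher were found for 3 of the 4 members in each comparison with control, against 30.6% of all genes for laser and 30.2% for bur.

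The laser and bur samples differed in Dmp1 by 3.80-fold (log2 1.93 ± 0.25, SE, n = 4 each, 95% interval 1.37 to 2.48). This difference was exceeded by 0.0261% of all genes, 6 in number, yet it did not pass after adjustment over all genes (limma adjusted p = 0.115; exact permutation p = 0.0286). It passed in 3 of 15 other settings, with adjusted p = 0.0140 after normexp background correction, 0.0335 with slide as a block and 0.0396 with an intensity trend, and the adjusted p ranged up to 0.807 over the 15. Within slide 1 the laser samples averaged 5.69 and the bur samples 4.35, a difference of 1.35. Within slide 2 they averaged 6.61 and 4.10, a difference of 2.51. The difference had the same sign on both slides. The SD was 0.54 among the 4 laser samples, 0.25 among the bur samples and 0.25 among the controls.

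Mepe rose by almost the same amount after both kinds of injury. Its log2 signal was 6.98, 6.65, 6.86 and 7.24 in the laser samples, 7.07, 6.77, 7.19 and 6.51 in the bur samples and 5.55, 4.94, 5.45 and 5.27 in the control samples. The laser and bur samples interleaved, and all 8 lay above the highest control sample. Mepe was 3.10-fold higher in laser bone (log2 1.63 ± 0.19, SE, n = 4 each, limma adjusted p = 0.000197) and 3.00-fold higher in bur bone (log2 1.59 ± 0.19, SE, n = 4 each, limma adjusted p = 0.000261), each over control. Laser and bur differed by 0.05 on the log2 scale, with a 95% interval of -0.38 to 0.47 (limma adjusted p = 0.994; exact permutation p = 0.829). That interval leaves out a difference of the size seen for Dmp1.

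Spp1 was higher than control in laser bone, and its bur samples overlapped the controls. Its log2 signal was 7.82, 8.17, 8.69 and 8.84 in the laser samples, 7.09, 7.29, 7.48 and 7.56 in the bur samples and 7.16, 6.64, 7.49 and 7.29 in the control samples. The 4 laser samples lay above all others. Spp1 rose 2.35-fold in laser bone over control (log2 1.23 ± 0.25, SE, n = 4 each, limma adjusted p = 0.00242). This call was lost with quantile normalization (log2 0.69, adjusted p = 0.0722) and with limma on the authors' normalized values (log2 0.63, adjusted p = 0.0841). The authors' deposited table gives the same probe a log2 fold change of 0.63 with an adjusted p of 0.0339. In bur bone the difference from control was 0.21 on the log2 scale, with an interval of -0.34 to 0.75 (limma adjusted p = 0.494; exact permutation p = 0.457).

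Laser bone exceeded bur bone in Spp1 by 2.04-fold, or 1.03 ± 0.25 on the log2 scale (SE, n = 4 each), which did not pass over all genes (limma adjusted p = 0.448; exact permutation p = 0.0286). Within slide 1 the laser samples averaged 7.99 and the bur samples 7.19. Within slide 2 they averaged 8.77 and 7.52, so the laser mean was higher on each slide. Dmp1 and Spp1 were the 2 of 4 members with every laser sample above every bur sample, a pattern found in 2.04% of all genes. The Spp1 probe was spotted 10 times on each array, and the SD between its spots was 0.027 to 0.084 on the log2 scale, below the SD of 0.47 between laser samples, 0.21 between bur samples and 0.36 between control samples.

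Ibsp had the smallest difference between laser and control among the members. Its log2 signal was 4.85, 4.61, 5.10 and 5.43 in the laser samples, 4.75, 4.64, 4.67 and 4.90 in the bur samples and 4.59, 4.26, 4.57 and 4.62 in the control samples. One laser sample lay below the highest control sample, and the lowest bur sample lay 0.02 above that control sample. Ibsp rose 1.40-fold in laser bone over control (log2 0.49 ± 0.17, SE, n = 4 each, limma adjusted p = 0.0342; exact permutation p = 0.0571). That call was lost in 8 of 15 other settings and without laser sample 3 or 4 or control sample 2 or 3, over which the log2 fold change ranged from 0.11 to 0.51. In bur bone the difference from control was 0.23 on the log2 scale (interval -0.14 to 0.61, limma adjusted p = 0.268; exact permutation p = 0.0286). Laser and bur differed by 0.26 (interval -0.12 to 0.63, limma adjusted p = 0.874).

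**Figure D1:**
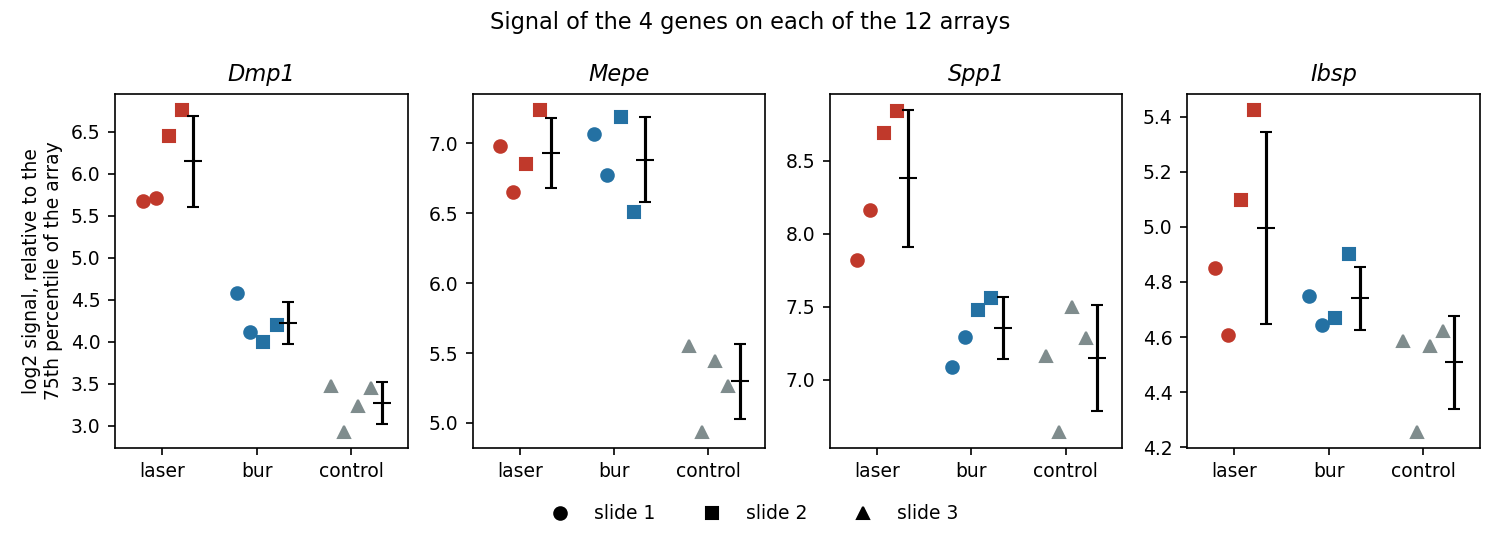
Log2 signal of each gene, relative to the 75th percentile of the array (vertical axis), for the 4 laser, 4 bur and 4 control samples, with the mean ± SD of each group in black and the slide given by the marker shape. The 3 groups do not overlap for Dmp1, laser and bur lie together above control for Mepe, and only the laser samples stand above the rest for Spp1.

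**Figure D2:**
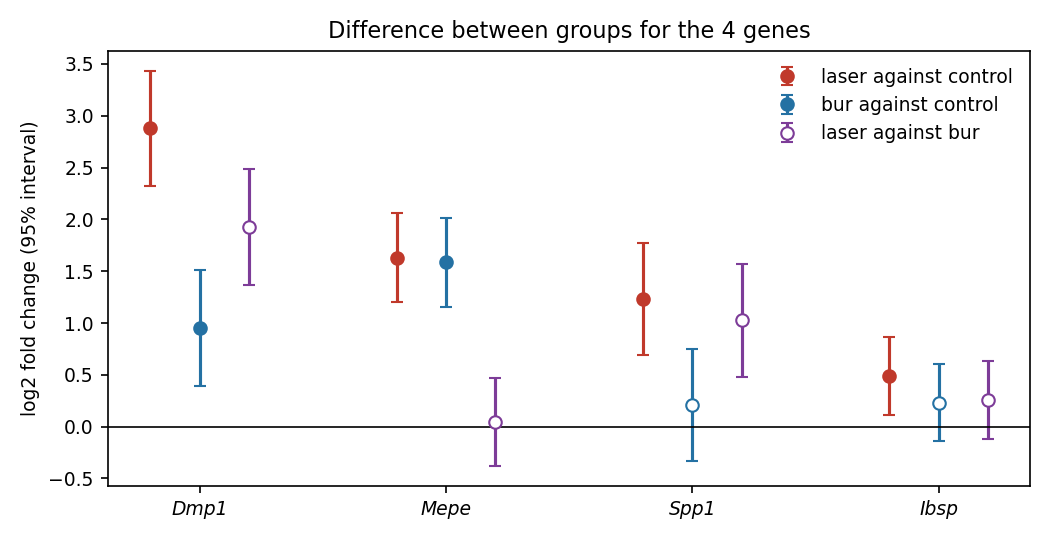
Log2 fold change (vertical axis) with its 95% interval for each gene in laser against control, bur against control and laser against bur, filled where limma's adjusted p was under 0.05. Dmp1 has the highest laser value, 2.88, and Mepe has nearly equal laser and bur values, 1.63 and 1.59.

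Whether the members changed unequally was tested with the ratio of 2 genes within each array, from which a constant added to all log2 values of an array cancels. Scalings that act differently on bright and dim probes, such as quantile normalization, can still move it. Of 6 pairs, 5 differed between laser and control and 5 between bur and control, each with a two-sided exact permutation p = 0.0286 and 0.0343 after Benjamini-Hochberg adjustment over these 12 ratios. The exceptions were Mepe over Spp1 in laser bone (exact permutation p = 0.143) and Spp1 over Ibsp in bur bone (exact permutation p = 0.829). The share of pairs of any genes that differ in this way was not counted, so these counts cannot be read as particular to the members. The ratios also share genes, and both comparisons use the same control samples. Dmp1 gained on all 3 other genes in laser bone, by 1.25 on the log2 scale over Mepe, 1.65 over Spp1 and 2.39 over Ibsp. In bur bone Dmp1 also gained on Spp1 and Ibsp, by 0.75 and 0.72. It lost against Mepe there: the ratio of Dmp1 to Mepe fell by 0.63 in bur bone relative to control. Mepe gained 1.38 on Spp1 and 1.35 on Ibsp in bur bone. The direction of the Dmp1 to Mepe ratio was thus opposite in laser and bur samples, whose values did not overlap. With the authors' normalized values the bur difference in that ratio was -0.56 (exact permutation p = 0.0571), and the laser gain of Spp1 on Ibsp, 0.75, was lost there and with quantile normalization (exact permutation p = 0.0571 and 0.0857).

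**Figure D3:**
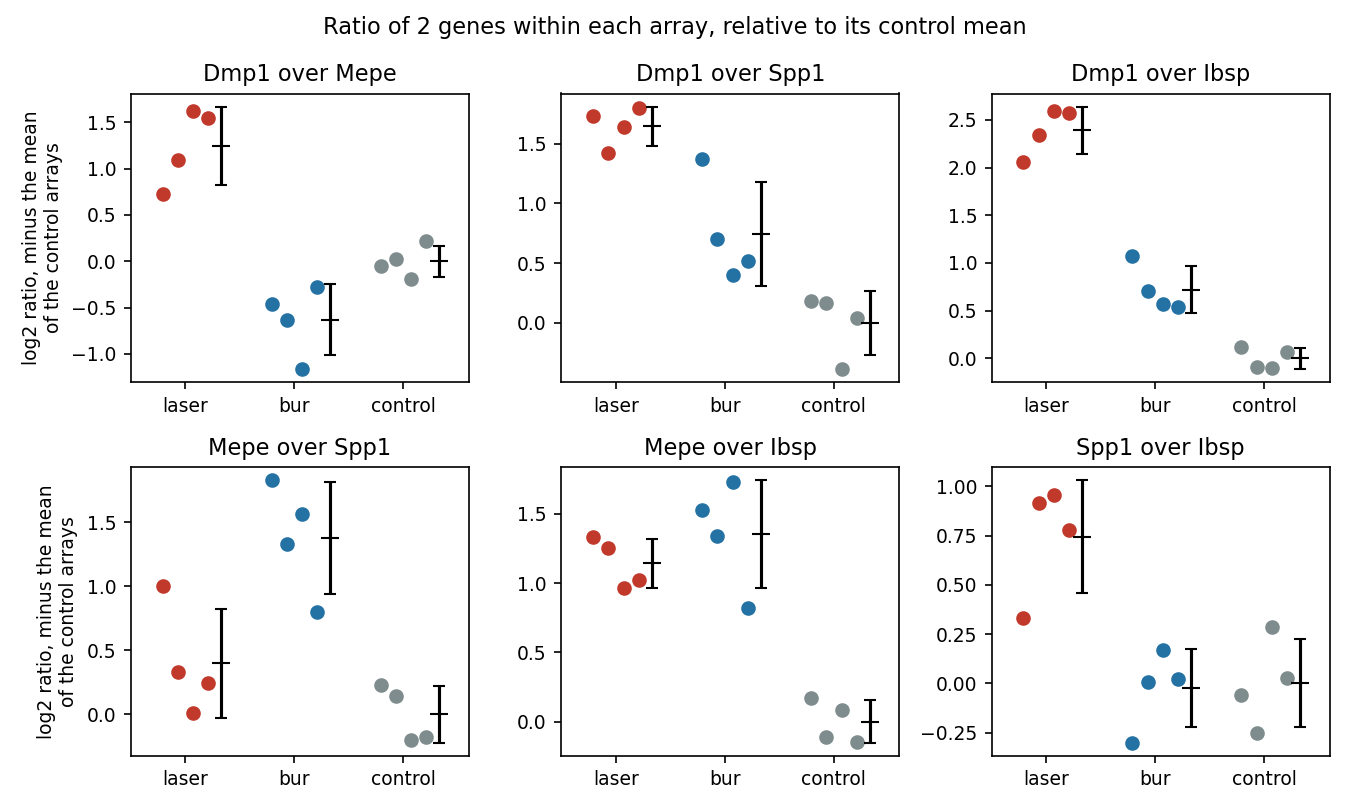
Log2 ratio of 2 genes within each array, minus the mean of the control arrays (vertical axis), for each of the 6 pairs in laser, bur and control samples, with the mean ± SD in black. The ratio of Dmp1 to Mepe lies above control in all 4 laser samples and below it in all 4 bur samples.

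Dmp1, Spp1 and Ibsp also varied together among samples of one group, and Mepe less so. Over the 12 arrays, the deviations from the group means correlated at r = 0.86 for Dmp1 and Ibsp, 0.77 for Spp1 and Ibsp, and 0.65 for Dmp1 and Spp1. The pairs with Mepe had lower values, 0.48 with Dmp1, 0.48 with Ibsp and 0.34 with Spp1. These values are descriptions over 12 arrays that share slides and scaling, with no test. In Dmp1, Spp1 and Ibsp the 2 laser samples on slide 2 read higher than the 2 on slide 1.

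The genes next to the 4 members were read from the same fit. Dspp, the next gene after Dmp1, rose by 1.03 ± 0.25 on the log2 scale in laser bone (SE, n = 4 each, limma adjusted p = 0.00608) and by 1.34 ± 0.25 in bur bone (limma adjusted p = 0.00156). Its laser call was lost after normexp background correction (0.44, adjusted p = 0.0636). Its signal was -1.60, -1.37, -1.93 and -1.42 in the laser samples, -0.96, -0.76, -1.91 and -1.42 in the bur samples and -2.23, -2.88, -2.63 and -2.69 in the control samples. All 8 treated samples lay above the controls, but these values come from 1 of 4 Dspp probes. Of the others, 1 was well above background on 8 arrays, none of them controls, 1 on a single array and 1 on none. The probe used lies at chr14:6676438-6676497 on the minus strand of RGSCv3.4, the build of the array design, within the repeats that code for serine and aspartate. It is shown because 5 copies of the unit AGTGAC, in capitals, fill much of its 60 bases.
Dspp probe: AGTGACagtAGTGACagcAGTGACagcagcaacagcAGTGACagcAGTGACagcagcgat

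Of 10 protein-coding genes flanking the 4 members, 5 on each side, 7 were measured and 3 rose in each comparison with control, Pkd2, Dspp and Nudt9, a share close to the 32.2% and 32.7% of all genes that passed as higher in laser and in bur bone. Pkd2, a cation channel gene beside Spp1, rose by 0.74 ± 0.17 in laser bone and 0.54 ± 0.17 in bur bone on the log2 scale (limma adjusted p = 0.00497 and 0.0224). The laser call of Pkd2 was lost in 1 of 15 other settings, slide 2 only (adjusted p = 0.0580), and its bur call in 5 of 15 and without bur sample 4, control sample 2 or control sample 3. Nudt9, a nucleotide hydrolase gene on the far side of Dspp, rose by 1.69 ± 0.14 in laser bone and 1.56 ± 0.14 in bur bone (adjusted p = 7.02e-05 and 0.000132). Sparcl1, between Dspp and Nudt9, had values of 0.12 ± 0.38 in laser bone and 0.18 ± 0.38 in bur bone and did not pass (adjusted p = 0.809 and 0.705). Scpppq1, Hsd17b11 and Abcg3l1 did not pass either, with log2 values of 0.18, 0.33 and 0.28 in laser bone and -0.18, 0.72 and 0.20 in bur bone.

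**Figure D4:**
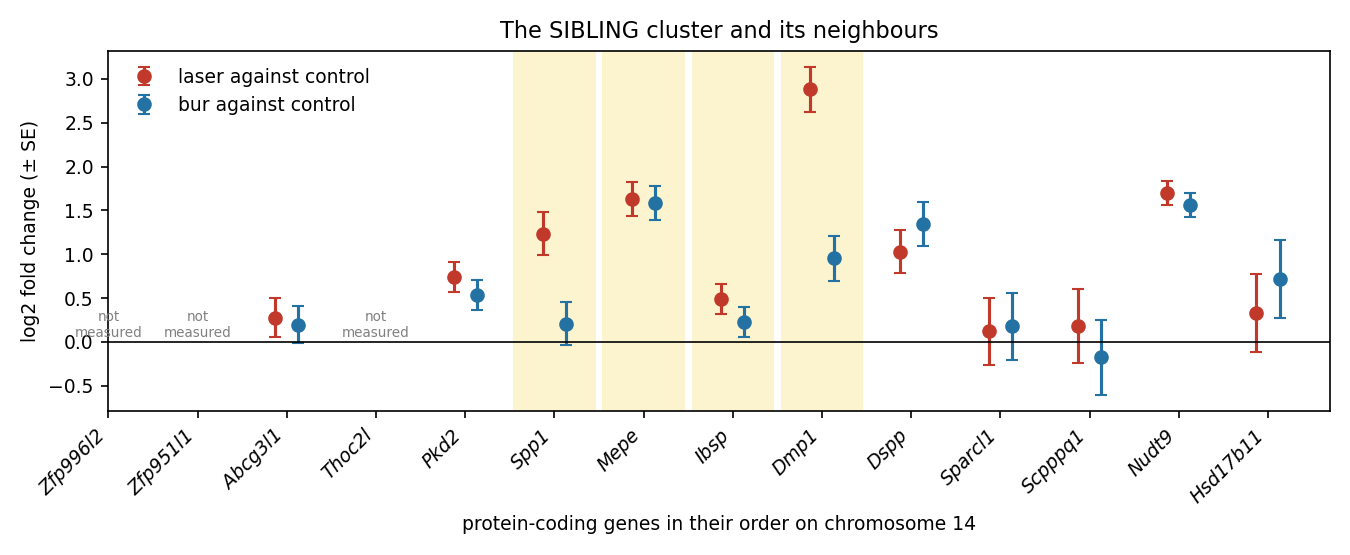
Log2 fold change ± SE (vertical axis) for the 4 members, shaded, and 10 neighbouring protein-coding genes in their order on chromosome 14, with laser against control left of bur against control at each gene; 3 genes were not measured. Values change from gene to gene along the cluster, with Dmp1 at 2.88 in laser bone and its neighbour Ibsp at 0.49.

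Among 9 receptor genes for these ligands, 3 rose and 2 fell in each comparison with control. That was near the shares of all genes, 32.2% higher and 17.6% lower for laser and 32.7% and 18.3% for bur. The list's median log2 fold change was -0.10 in laser bone and 0.08 in bur bone, beside 0.21 and 0.23 over all genes. Itgav, the alpha v chain that pairs with several beta chains to bind RGD, rose by 1.07 ± 0.12 in laser bone and 1.03 ± 0.12 in bur bone (SE, limma adjusted p = 0.000164 and 0.000225). Itgb1, the beta 1 chain, rose by 0.81 ± 0.12 in laser bone and 0.65 ± 0.12 in bur bone. Its fellow beta chain Itgb3, which with Itgav forms the osteoclast's receptor for Spp1 and Ibsp, fell by 2.08 ± 0.43 in laser bone and 1.86 ± 0.43 in bur bone. Itga4, a chain that leukocytes carry, fell by 1.91 ± 0.37 in laser bone and 1.63 ± 0.37 in bur bone.

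Of 10 genes for the kinase, the proteases and the phosphatase that process SIBLING proteins, 4 rose and 1 fell in each comparison with control, near the shares of all genes, 32.2% and 17.6% for laser and 32.7% and 18.3% for bur. The list's median log2 fold change was 0.24 in laser bone, beside 0.21 over all genes, and 0.40 in bur bone, beside 0.23. Fam20c, the Golgi kinase that phosphorylates these proteins, had a log2 signal of 1.91, 1.73, 2.46 and 2.50 in the laser samples, 1.02, 0.66, 0.77 and 1.29 in the bur samples and 0.39, 0.34, 0.20 and 0.71 in the control samples. All laser samples lay above all others, and 1 bur sample lay below the highest control. Fam20c rose by 1.74 ± 0.21 in laser bone (limma adjusted p = 0.000212), and in bur bone its value of 0.52 ± 0.21 did not pass (adjusted p = 0.0570), although it passed in 4 of 15 other settings and in 3 of 12 fits that left out 1 array. Phex, the endopeptidase that cleaves the ASARM peptide, rose by 1.92 ± 0.29 in laser bone and 1.30 ± 0.29 in bur bone. Mmp2, a gelatinase, rose by 1.86 ± 0.21 in laser bone and 1.73 ± 0.21 in bur bone. Mmp9, a gelatinase of osteoclasts and neutrophils, fell by 1.52 ± 0.34 in laser bone and 1.45 ± 0.34 in bur bone, the bur call being lost with slide 2 only (adjusted p = 0.0506). Neither Fam20c nor any other gene of this list passed between laser and bur.

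In the phosphate, pyrophosphate and Fgf23 axis 5 of 8 measured genes rose in laser bone (median 1.34) and 6 in bur bone (median 0.94). Over all genes, 32.2% passed as higher in laser bone (median 0.21) and 32.7% in bur bone (median 0.23). Enpp1, which makes the mineralisation inhibitor pyrophosphate, rose by 1.14 ± 0.14 in laser bone and 0.98 ± 0.14 in bur bone. Alpl, the alkaline phosphatase that degrades it, rose by 1.73 ± 0.22 in laser bone and 2.05 ± 0.22 in bur bone. Fgfr1, a receptor for Fgf23, rose by 1.79 ± 0.23 in laser bone and 1.72 ± 0.23 in bur bone. Ankh, a transporter that exports pyrophosphate, rose by 1.66 ± 0.26 in laser bone, and its value of 0.51 ± 0.26 in bur bone did not pass (limma adjusted p = 0.125), although it passed in 2 of 15 other settings and without laser sample 4. Fgf23 itself and its co-receptor Kl did not pass the filter on dim probes.

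Of 9 transcription factors that bind SIBLING promoters or drive osteoblasts, 8 rose in laser bone and 6 in bur bone. Over all genes, 32.2% passed as higher in laser bone and 32.7% in bur bone. The list's median log2 fold change was 1.04 in laser bone and 1.18 in bur bone, beside 0.21 and 0.23 over all genes. Runx2, a factor required for osteoblast formation, rose by 2.18 ± 0.17 in laser bone and 1.99 ± 0.17 in bur bone. Whether it binds the Runx cores marked in the Mepe and Spp1 windows was not tested. Atf4, a stress-responsive factor that controls late osteoblast genes, rose by 0.99 ± 0.15 in laser bone and 0.69 ± 0.15 in bur bone, the bur call being lost with median centring (adjusted p = 0.0531). Among 5 measured relatives in the secretory calcium-binding phosphoprotein family, 4 rose in laser bone and 3 in bur bone, beside the same 32.2% and 32.7% of all genes. Sparc (osteonectin) rose by 0.76 ± 0.18 in laser bone and 0.51 ± 0.18 in bur bone, calls that were lost in 2 of 15 other settings for laser and 8 of 15 for bur, the bur call also in 4 of 12 fits without 1 array, with a laser value as low as 0.023 after quantile normalization. Amelx, an enamel matrix gene, was well above background on 3 laser arrays, 4 bur arrays and no control array. In the chosen analysis it was at least 2.55-fold higher in laser bone and at least 2.19-fold higher in bur bone. The laser call of Amelx was lost in 1 of 14 other settings, normexp background correction, and its bur call in 3 of 14, normexp, the authors' normalized values and slide 2 only. With normexp its log2 fold change was 0.23 in laser bone and 0.046 in bur bone, below these bounds. Such a bound sets the treated mean against the lowest signal well above background, or the probe's own signal where that was higher, on each control array.

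The marker lists of osteoblasts and osteocytes were mostly higher in both treated groups. Over all genes, 32.2% passed as higher and 17.6% as lower in laser bone, and 32.7% and 18.3% in bur bone. Osteoblast markers rose in 9 of 9 genes in both comparisons, and their summed signal was 3011 to 3400 in laser samples, 2367 to 3863 in bur samples and 1363 to 1836 in control samples, in units of each array's 75th percentile. Of 6 measured osteocyte markers, 5 rose and 1, Sost, fell in laser bone, while all 6 rose in bur bone. Their summed signal was 105.5 to 206.1 in laser samples, 110.2 to 194.7 in bur samples and 24.9 to 40.4 in control samples. Slc13a5, a citrate transporter gene, rose by 2.36 ± 0.26 in laser bone and 2.29 ± 0.26 in bur bone. Omd (osteomodulin), a matrix proteoglycan of osteoblasts, rose by 2.67 ± 0.17 in laser bone and 2.40 ± 0.17 in bur bone. The part of these shifts in the values of the 4 members was not tested.

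Markers of other cells the samples could hold were counted in the same way, beside 32.2% of all genes higher and 17.6% lower in laser bone and 32.7% higher and 18.3% lower in bur bone. Erythroid markers fell in 7 of 8 genes in both comparisons, with summed signals of 15.4 to 331.3 in laser samples, 78.3 to 428.4 in bur samples and 657.7 to 1046 in control samples. Neural and glial markers fell in 6 of 8 in both, with sums of 7.73 to 67.2 in laser samples, 10.7 to 25.4 in bur samples and 7.16 to 60.5 in control samples. Of these, Elavl3 was well above background on no laser array, 1 bur array and 4 control arrays. In the chosen analysis it was at least 10.9-fold lower in laser bone than in control. Over 14 other settings its log2 fold change there ranged from -4.73 to -1.31, so the bound does not hold in all of them. Adipocyte markers fell in 4 of 5 in laser bone and 5 of 5 in bur bone, with sums of 5.61 to 10.7 in laser samples, 4.0 to 11.2 in bur samples and 15.5 to 23.0 in control samples. The fat gene Cidec was well above background on no laser array, 1 bur array and 4 control arrays, at least 4.89-fold lower in laser bone in the chosen analysis. Over 14 other settings its log2 fold change in laser bone ranged from -3.92 to -0.66, so this bound does not hold in all of them either. Macrophage markers fell in 6 of 11 in laser bone and 5 of 11 in bur bone, and 1 rose in each. Their sums were 103.0 to 128.0 in laser samples, 108.0 to 151.8 in bur samples and 105.6 to 134.9 in control samples. Of 10 osteoclast markers, 2 rose and 2 fell in laser bone, and 2 rose and 3 fell in bur bone. Their median log2 fold change was -0.46 in laser bone and -0.38 in bur bone, beside 0.21 and 0.23 over all genes. Their sums, in which bright genes weigh most, were 128.8 to 215.9 in laser samples, 143.2 to 249.6 in bur samples and 95.6 to 150.9 in control samples. Chondrocyte markers rose in 2 of 5 in laser bone and 4 of 5 in bur bone, at sums of 2.65 to 4.67 in laser samples, 3.11 to 5.50 in bur samples and 1.34 to 4.36 in control samples. No skeletal muscle marker of 7 passed, and their sums were 4.08 to 15.6 in laser samples, 2.41 to 15.4 in bur samples and 2.39 to 178.3 in control samples. In laser against bur, 0 genes of any of these lists passed. Whether erythroid, fat, neural or immune cells had a part in the SIBLING differences was not tested.

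**Figure D5:**
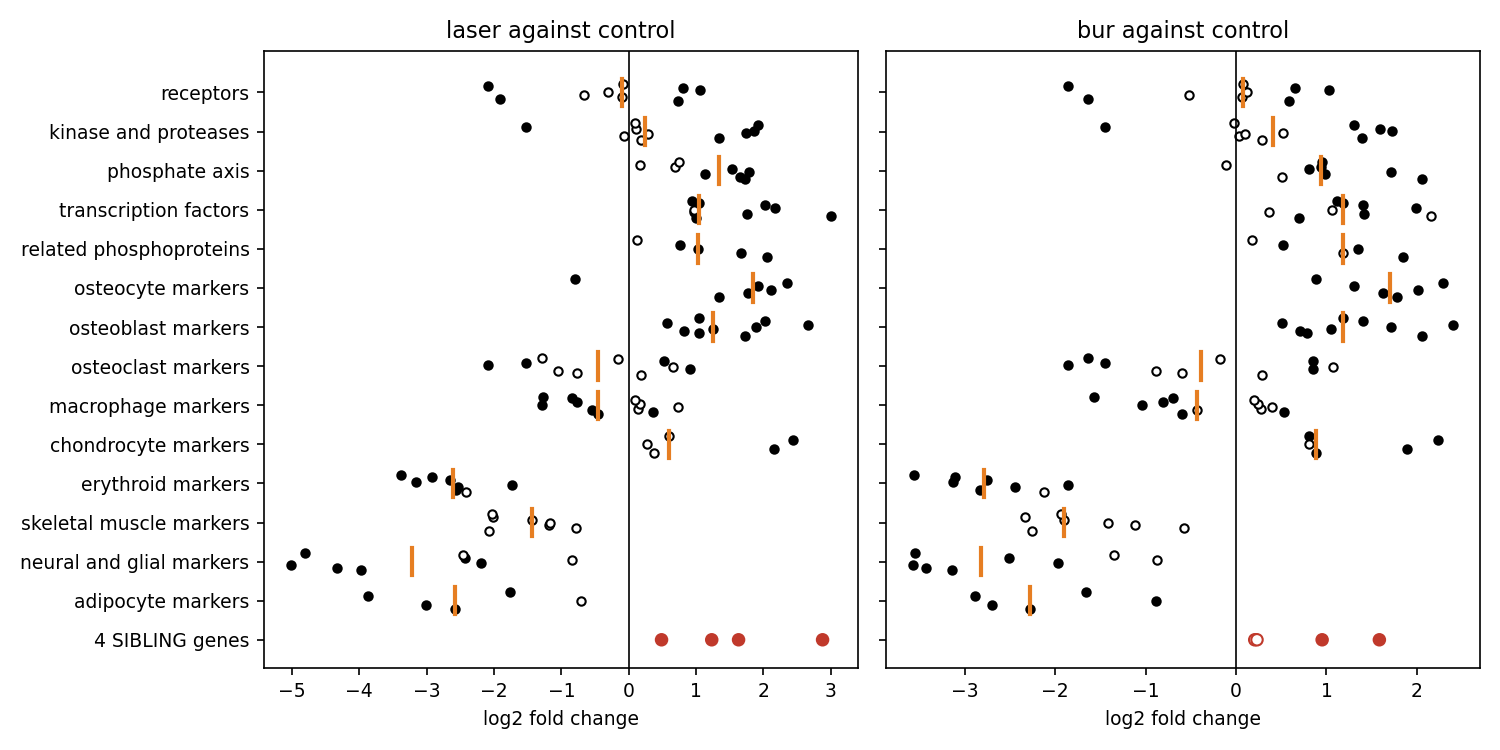
Log2 fold change (horizontal axis) of each measured gene of the lists in laser against control (left) and bur against control (right), filled where limma's adjusted p was under 0.05, with the list's median as an orange bar and the 4 SIBLING genes in red at the bottom. The osteoblast, osteocyte and transcription factor lists lie mostly above 0, and the erythroid, neural and adipocyte lists below it.

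The genes whose profile over the 12 arrays was most like each member's, by the smallest root mean square difference of log2 values centred on each gene's mean, differed between members. Their differences between groups follow from this choice and are given as values with no test. For Dmp1 they were Galnt5, Hspb7, Fam20c, Ankh and Tnfrsf11b, at differences of 0.47 to 0.52. Fam20c and Ankh are thus genes of the lists above, and Tnfrsf11b encodes osteoprotegerin, the decoy receptor that restrains osteoclast formation. The log2 fold change of Tnfrsf11b was 2.09 for laser and 0.95 for bur, each against control. Galnt5, a glycosyltransferase gene, had values of 2.49 for laser and 1.52 for bur. Hspb7, a small heat shock protein gene, had 1.98 for laser and 0.46 for bur. For Mepe the nearest genes were Tnfaip2, Cspg4, Sec61a1, Limd1 and P3h4, at 0.17 to 0.21. For Spp1 they were Ubd, Cort, Lgals2, Myo19 and Ankh, at 0.25 to 0.32, and for Ibsp, Sbf2, Septin9, Usp28, Slc50a1 and Snx4, at 0.12 to 0.13. A small difference for Ibsp reflects its narrow range, an SD of 0.30 over the 12 arrays against 1.30 for Dmp1.

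The authors' deposited table of comparisons gives Dmp1 a log2 fold change of 2.54 for laser against control (adjusted p = 0.000126), 0.71 for bur against control (adjusted p = 0.0309) and 1.82 for laser against bur (adjusted p = 0.0623). For Mepe the authors' deposited table gives 1.20 for laser and 1.27 for bur, each against control. Ibsp has 0.11 for laser against control in the authors' deposited table (adjusted p = 0.546), below the 0.49 found here with scaling on the 75th percentile.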

How the data were processed

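Rat calvarial RNA was measured on 12 one-colour Agilent arrays. Each array's spot intensity values were deposited by the authors, with background subtracted; the file headers and submitters' processing notes name Agilent Feature Extraction 11.0.1.1. The authors also deposited log2 quantile-normalized values, and tables with log2 fold changes, p-values, adjusted p-values and test scores (t and log odds) per probe; which model gave them was not stated. Here log2 processed signals were averaged over spots after leaving out control spots and spots marked as outliers, and scaled by subtracting the array's 75th percentile. Probes well above background on at least 4 of 12 arrays were kept, 1 per gene by the highest mean, giving 22990 genes. RefSeq accessions named 21184 of 45598 probes (46.5%), and other names are those of the files. Groups, taken from the titles, were tested in limma 3.58.1 (R 4.3.3), two-sided, with all 12 arrays in 1 fit and Benjamini-Hochberg adjustment over all genes at 0.05, and with exact permutation tests. Fold changes are relative to the array's 75th percentile. Scripts were tested on simulated data. Named genes were the 4 members, up to 3 genes per list with the smallest adjusted p in laser against control, the 5 genes of the most similar profile per member, and 5 neighbours on each side. A few genes this rule picks are not reported here, though the counts for lists include them. Members and lists were chosen with earlier results of these data known. Alternatives covered normalization, background correction, filters, probe choice, blocks, variance model and leaving out arrays.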

Additional observations from a re-analysis of the deposited data

Results flagged for a closer look

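Among 191 groups of 4 samples tested, 10 held a sample far from the other 3, and chance gives about 1 in 20. One concerned a member: Ibsp read 4.26 in control sample 2, against 4.57 to 4.62 in the other controls (log2 signal over the 75th percentile). Control sample 2 also stood apart in Itgav at 3.01 (others 3.34 to 3.39), in Ankh at 1.06 (others 1.45 to 1.51) and in Ermap at -0.057 (others -0.93 to -0.85). Bur sample 3 stood apart in Ctsk at 6.61 (others 6.18 to 6.22), in Itgb3 at -0.49 (others -2.01 to -1.86) and in Klf1 at 0.77 (others -1.27 to -1.04). Laser sample 1 stood apart in Klf1 at -2.83 (others -0.12 to 0.40). Laser sample 2 read 3.30 in Enpp1 (others 2.89 to 2.95), and control sample 4 read -4.51 in Elavl3 (others -1.08 to -1.06). Without control sample 2 Ibsp in laser against control had a log2 fold change of 0.40 and no longer passed.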

How the results depend on the processing

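Dmp1 and Mepe against control, in laser and in bur, kept their direction and passed in all 15 other settings and in all 12 fits that left out 1 array (Dmp1 2.42 to 3.34 and 0.71 to 1.08 over the settings, Mepe 1.20 to 1.75 and 1.27 to 1.62, log2). Dmp1 in laser against bur passed with normexp (1.88), slide as a block (1.93) and an intensity trend (1.93). Spp1 in laser against control was lost with quantile normalization (0.69) and the authors' values (0.63). Ibsp in laser against control was lost with quantile normalization (0.21), the authors' values (0.11), the percentile over well measured probes (0.38), median centring (0.38), slide 1 only (0.22), no filter (0.49), 2 groups in the fit (0.49) and slide as a block (0.49); without one array it was 0.35 to 0.62. The sign turned for Mepe in laser against bur (-0.050 with quantile, -0.069 with the authors' values, -0.10 on slide 1, -0.078 to 0.15 without one array). It also turned for Spp1 in bur against control (-0.16 and -0.17) and Ibsp (-7.67e-05 and -0.065) with quantile and the authors' values. No turned value passed the test. Genes passing between laser and bur numbered 1 in the chosen analysis, 5 with normexp, 10 with slide as a block, 2 with an intensity trend, 0 with the mean of probes, 2 groups in the fit or 1 slide, and 0 to 1 without one array. The causes were not tested. The other scalings moved the median of all genes in laser against control from 0.21 to as low as 0.03. For bur against control 64.2% of the passing genes were higher, against 51.5% with median centring, 51.6% with normexp and 54.1% with the authors' values.

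Among other named genes, sign turned with no value passing: Sparcl1 in laser against control (-0.10 quantile, -0.11 authors' values, -0.46 slide 2, -0.17 to 0.40 without one array) and in bur against control (-0.00039 median centring, -0.022 authors' values, -0.0076 to 0.37 without one array). Scpppq1 turned in laser against control (-0.10 quantile, -0.11 normexp, -0.054 authors' values, -0.0055 to 0.45 without one array) and in bur against control (0.38 slide 2, 0.036 array weights, -0.37 to 0.23 without one array). Hsd17b11 in laser bone was -0.049 with the authors' values and -0.070 on slide 1, Hspb7 in bur bone -0.13 with normexp and Septin9 in laser bone -0.12 with the mean of probes. The ratio of Spp1 to Ibsp in bur bone was 0.025 with normexp and -0.11 to 0.071 without one array.

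Whether replicate numbers pair the samples is not known. Same-numbered deviations correlated at 0.09 to 0.39 for laser and control, 0.09 to 0.26 for bur and control and 0.04 to 0.58 for laser and bur. These values cannot settle it, because samples with different numbers were not compared and same-numbered laser and bur samples shared a slide. The replicate block changed no member's call (Dmp1 in laser against control 2.88, adjusted p = 0.000153; Ibsp adjusted p = 0.0129), and 12544, 12915 and 1 genes passed with it. Each member had 1 probe, so no other probe of a member could be tried.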
